A study of Mus musculus with 168 samples.

Results

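A group of related microRNA genes was followed through the cortex of mice carrying Htt alleles of increasing CAG length. Its 5 rows, Mir15a, Mir16-1, Mir16-2, Mir195a and Mir497b, were found by gene name among the 1626 Ensembl transcripts of the deposited table, of which the GENCODE annotation of build GRCm38 names 1228. The group was chosen by earlier results of these libraries, in which Mir195a had been called in Q175 mice at 6 and 10 months, so every value of Q175 mice against controls at those ages is a description without a test. Small RNA of flash-frozen cortex was sequenced from C57BL/6 mice, with 8 libraries (4 female, 4 male mice) for each of 7 genotypes at 2, 6 and 10 months. The Q20, Q80, Q92, Q111, Q140 and Q175 mice were heterozygous knock-ins with a human HTT exon 1 of that CAG length in 1 Htt allele and a wild-type mouse allele in the other. The WT mice were littermates of the Q20 line and were given a length of 7 CAG repeats in the tests on CAG length. Q20 and WT mice served as controls at 2 and 10 months (n = 16) and Q20 mice at 6 months (n = 8), with the 6-month WT libraries shown apart. Every line was bred and housed with its own mice, so a genotype and its breeding line cannot be told apart.

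MicroRNAs of this group are cut from hairpin precursors that lie in neighbouring pairs, and the mature strand, loaded into an Argonaute protein, pairs with messenger RNAs mainly through its seed, bases 2 to 8. Members with the same seed are expected to reach overlapping targets, among them cell cycle genes and the messenger of the survival factor BCL2. In the brain the group has been studied for its effects on cell survival and on the beta-secretase Bace1, a known target of the Mir195a product.

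The mature sequences show what the members share and where the rows cannot be separated. They come from RefSeq (build GRCm38.p6) and are written 5′ to 3′ with the seed in capitals.
miR-15a-5p (Mir15a): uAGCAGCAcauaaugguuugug
miR-16-5p (Mir16-1 and Mir16-2): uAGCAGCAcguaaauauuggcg
miR-195a-5p (Mir195a): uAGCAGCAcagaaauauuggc
miR-497a-5p (Mir497): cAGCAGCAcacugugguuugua
miR-497b (Mir497b): cACCACAGugugguuuggacgugg
Of 1679 mature microRNA names in the RefSeq table, 10 have the seed of miR-15a-5p. The miR-195a-5p sequence matched miR-16-5p at 19 of 21 bases counted from the 5′ end, miR-15a-5p matched it at 16 of 22, and miR-497a-5p at 11 of 22. The mature sequence of Mir497b has another seed, which 2 names in the table share.

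Mir16-1 and Mir16-2 make the same miR-16-5p from separate chromosomes. Mir16-1 lies on chr14:61631880-61631972 (minus strand), 54 bases from Mir15a on chr14:61632027-61632110, both inside the noncoding gene Dleu2 and both transcribed in its direction. Mir16-2 lies on chr3:69009902-69009996 (plus strand) in an intron of Smc4, a subunit of the chromosome-condensing condensin complex, 66 bases after Mir15b. Counts of both miR-16 rows were not whole numbers in 100% of the libraries, whereas those of Mir15a, Mir195a and Mir497b were whole in all of them. The reads of these rows were therefore divided by an estimate, since the 5′ strand is the same and the 3′ strands, miR-16-1-3p and miR-16-2-3p, match at 12 of 22 bases.

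Mir195a lies on chr11:70235042-70235135 (plus strand), and the annotation puts Mir497 241 bases before it on the same strand, at chr11:70234717-70234800. Mir497b is annotated on the opposite strand at chr11:70234692-70234816, where it covers the whole Mir497 hairpin. The row carries the Mir497b transcript (ENSMUST00000093601, 125 bases), and no row of the table has the Mir497 transcript. The deposited FPKM of that row follow from its counts only with a length of 84 bases, the annotated length of Mir497 and not of Mir497b. Of 354 named rows with a mean over 10 counts, 317 gave a length within 1 base of the annotated one, including the other 4 members. Which of the overlapping hairpins these reads came from was not tested, and Mir497b below is the name of the row.

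Depth did not limit any member. Library totals ran from 2041741 to 11646287 counts with a median of 4810487, and Mir15a, for example, had at least 860 counts in every library. The Mir16-1 row had the highest level of the group. On the deposited FPKM scale, which divides by length, its median over all libraries was 80635, followed by Mir16-2 with 9285, Mir15a with 5376, Mir497b with 4705 and Mir195a with 4605. Comparisons below use CPM, counts scaled to the library total after TMM normalization, which scales libraries to one another. Markers of neurons were abundant, with a summed level of at least 43186 CPM in the Q20 and Q175 libraries of every age, and the hepatocyte microRNA Mir122 had a median of at most 1.78 CPM in controls. A male Q20 library at 2 months and a male Q20 library at 10 months stood apart in an analysis of distances between libraries, and in 2 libraries the labelled sex differs from that of the cage.

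**Figure D1:**
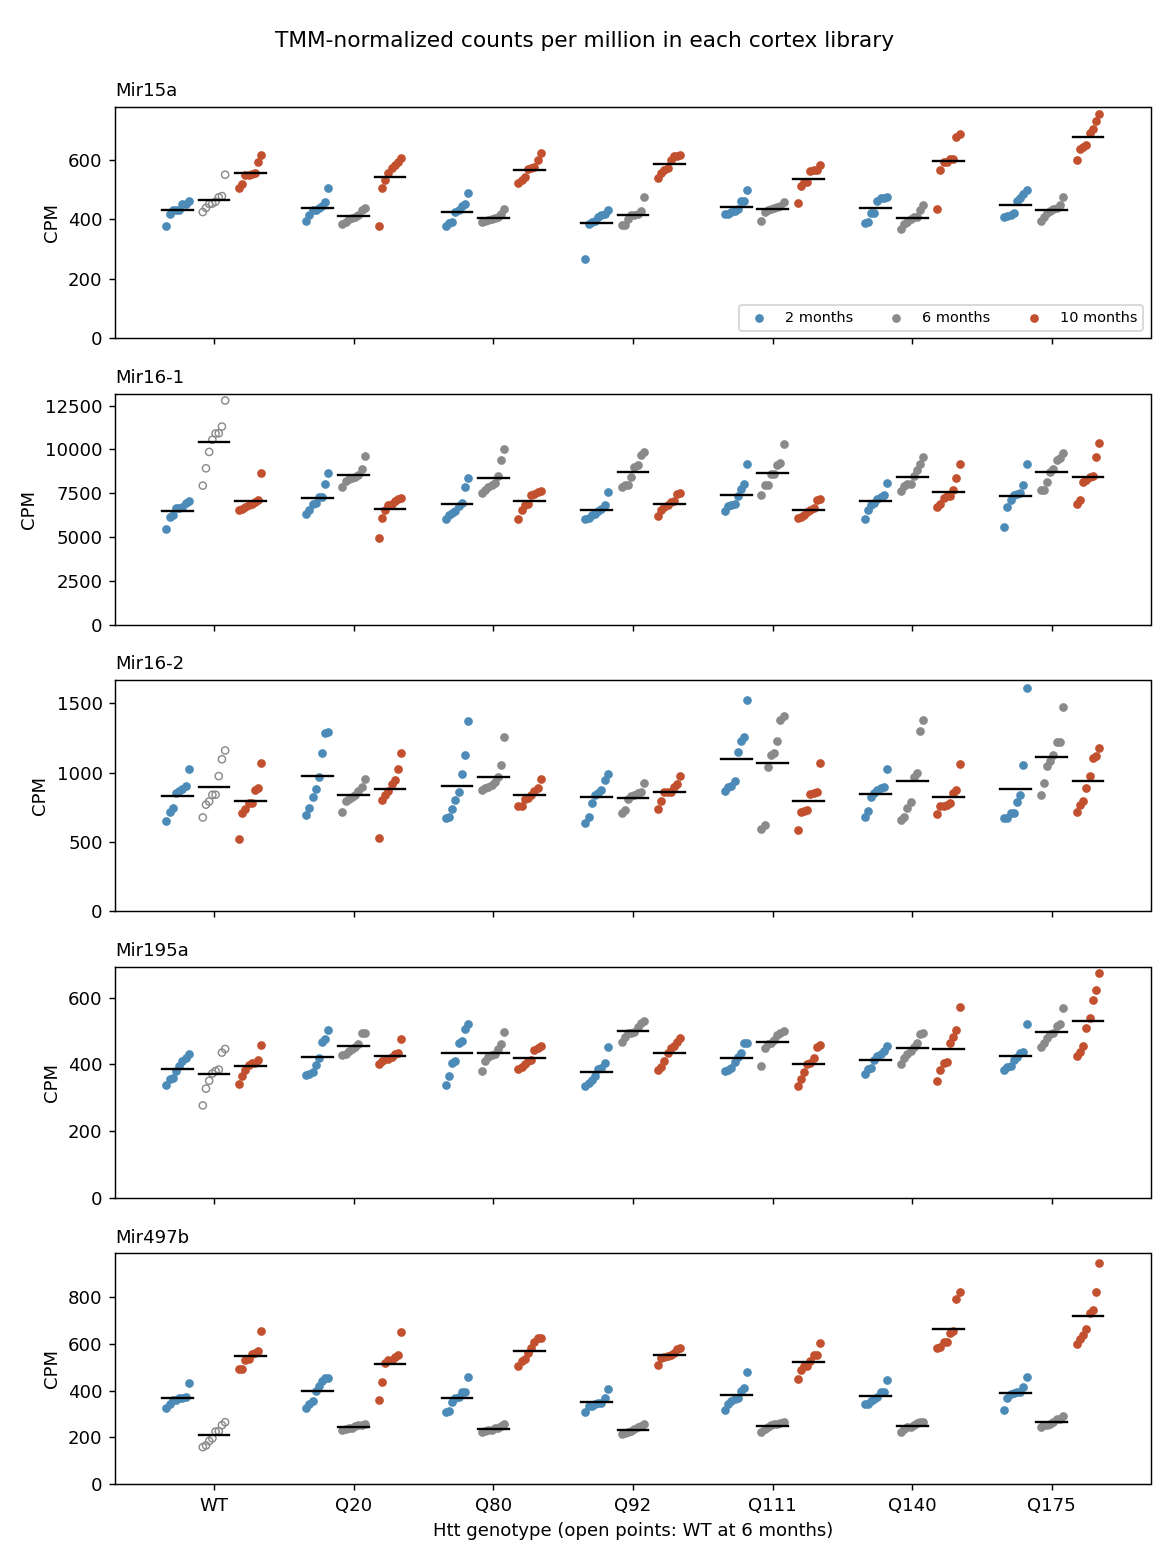
TMM-normalized CPM (linear axes from 0) of the 5 rows in each library by genotype and age, with lines at group means and open points for WT at 6 months. The Mir15a and Mir497b levels of Q175 mice at 10 months (means 677 and 720 CPM) are the highest group means of those rows, and the Mir497b row is lowest at 6 months in every genotype.

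At 10 months, 4 of the 5 members were called higher in Q175 mice than in controls, all but Mir16-2. These values chose the group, and nothing is read from the count. Over all rows, 4.29% of 699 were called at an FDR of 0.05 and 2.29% were called higher. The median log2 fold change was 0.27 over the 5 members and -0.01 over all rows tested.

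Mir15a, whose hairpin neighbours Mir16-1, had 601, 672 and 755 CPM as the lowest, median and highest Q175 values at 10 months, against 378, 554 and 617 CPM in the 16 controls. Of the 8 Q175 libraries, 7 lay above every control. The log2 fold change was 0.27 ± 0.06 (SE), or 1.20-fold.
Mir16-1, the row with the higher share of the miR-16 counts, had 6903, 8331 and 10365 CPM in Q175 mice against 4943, 6855 and 8677 CPM in controls. All 8 Q175 libraries were above the control median and 2 were above all controls. Its log2 fold change was 0.26 ± 0.07.
Mir195a had 425, 523 and 673 CPM in Q175 mice and 339, 410 and 475 CPM in controls, with 5 Q175 libraries above all controls. The log2 fold change was 0.33 ± 0.07, or 1.26-fold. The groups overlapped, since the other 3 Q175 libraries fell inside the control range.
The Mir497b row had 599, 698 and 946 CPM in Q175 mice and 359, 531 and 655 CPM in controls. Again 5 of 8 Q175 libraries exceeded every control, and the log2 fold change was 0.40 ± 0.08, or 1.32-fold, the largest of the 5.
Mir16-2 had 717, 934 and 1178 CPM against 523.7, 854 and 1142 CPM, nearly the same range. Its log2 fold change was 0.14 ± 0.12.

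The library names carry an L number that the labels do not explain, and the 10-month values are also given by this number, as a description of the same libraries. On number 6 (3 Q175 and 7 control libraries) the difference of log2 CPM means was 0.25 for Mir15a, 0.21 for Mir16-1, 0.05 for Mir16-2, 0.31 for Mir195a and 0.36 for Mir497b. On number 7 (4 and 4 libraries) the same differences were 0.41, 0.37, 0.24, 0.33 and 0.53. Number 8 held 1 Q175 library, and its differences from 5 controls lay between 0.20 and 0.28. Without the male Q20 library that stood apart, which had the lowest Mir15a value of all controls, the log2 fold changes were 0.24 for Mir15a and Mir16-1, 0.33 for Mir195a and 0.36 for Mir497b, and 4 members were called as before. With Q20 mice as the only controls, 1 member was called, Mir497b, and Mir15a, Mir16-1 and Mir195a had log2 fold changes of 0.27, 0.30 and 0.27.

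Markers of other cell types were set beside these values, because in whole cortex a change in cell numbers and a change per cell cannot be told apart. At 10 months the summed neuronal markers (5 of 5 present) were 45177 to 54215 CPM in Q175 mice and 45108 to 62043 CPM in controls, with a called decrease of Mir128-2. Choroid plexus markers (4 of 4) were 2615 to 3184 CPM in Q175 mice and 2489 to 11483 CPM in controls, with a called decrease of Mir448. The ranges also overlapped for markers of oligodendrocytes (3 of 4 present, 4348 to 5011 and 3334 to 4919 CPM), vascular and mural cells (3 of 5, 16474 to 20832 and 15608 to 23345 CPM), microglia and leukocytes (4 of 6, 2046 to 2854 and 1685 to 2867 CPM) and erythrocytes (3 of 4, 2013 to 2586 and 2111 to 2757 CPM). In these 4 lists 0 markers were called by edgeR. No marker present was at 0 in every library of a group. The part of any of these cells in the values above was not tested.

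At 6 months, Mir16-2 was the 1 member called in Q175 mice against Q20 mice. Over all rows tested, 0.929% were called and 0.464% were called higher, and nothing is read from the member count here either. Mir16-2 had 837.4, 1103 and 1473 CPM in Q175 mice and 717.8, 830 and 953 CPM in Q20 mice, with 6 of 8 Q175 libraries above every Q20 library. The log2 fold change was 0.52 ± 0.10, with the code (LB or V) of the library name as a covariate. All 8 Q20 libraries had code LB. This and the other log2 fold changes of Q175 mice at 6 months therefore rest on their 5 LB libraries. For Mir16-2 these had 925 to 1473 CPM, and the 3 V libraries had 837.4 to 1082 CPM. Mir16-1, which makes the same mature strand, had 7669, 8797 and 9765 CPM in Q175 and 7849, 8382 and 9646 CPM in Q20 mice, with a log2 fold change of 0.06 ± 0.07. The log2 fold changes of Mir15a, Mir195a and Mir497b were 0.12 ± 0.04, 0.17 ± 0.04 and 0.16 ± 0.05. For Mir195a all 8 Q175 libraries lay above the Q20 median, at 453 to 569 CPM against 427 to 495 CPM.

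The 6-month Mir16-2 values are also given by the L number and the code (LB or V) of the library names. The Q20 libraries had the numbers 3 and 4 and 0 of the 8 Q175 libraries did, so genotype and L number cannot be told apart in this comparison. An L number need not be 1 sequencing run, since 3 names of L number and code occurred more than once at 6 months. Each was that of a WT and a Q111 library of number 3, and no name recurred among the Q20 and Q175 libraries. The share of miR-16 counts given to Mir16-2 was 7.47% to 9.50% in Q20 and 8.87% to 13.7% in Q175 mice. On number 1, which held 4 Q175 libraries, the single Q80 library had 13.5% and the single Q140 library 15.4%. In Q111 mice the 4 V libraries, all male, had 12.5% to 14.2% and the 4 LB libraries, all female, 6.78% to 10.3%. Code and sex cannot be told apart there. In Q175 mice the order was the other way, with a median of 10.3% in the 3 V libraries (9.85% to 11.4%) and 12.3% in the 5 LB libraries (8.87% to 13.7%). Compared on the L numbers that Q175 and Q80 libraries shared, a comparison chosen after the values were seen, the difference of log2 Mir16-2 levels was -0.08 on number 1 (4 Q175 libraries, 1 Q80) and 0.31 on number 2 (1 Q175 library, 5 Q80). When Mir16-1 and Mir16-2 were added into 1 miR-16 count, 0 of the 4 features left were called by edgeR. The summed neuronal markers at 6 months were 47200 to 51341 CPM in Q175 and 52569 to 58821 CPM in Q20 mice, without overlap, and the vascular and mural markers were 31825 to 36926 and 36511 to 43247 CPM. Of the 5 neuronal markers Mir128-1 was called lower, and 0 markers of the other lists were called. Microglia and leukocyte markers were 989 to 1295 CPM in Q175 and 949 to 1058 CPM in Q20 mice. Oligodendrocyte markers were 3354 to 3602 and 3182 to 3961 CPM, and erythrocyte markers 3463 to 4531 and 3494 to 4117 CPM. Choroid plexus markers were 2548 to 3683 and 2595 to 5702 CPM. The part of L number, code and markers in the member values was not tested.

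**Figure D2:**
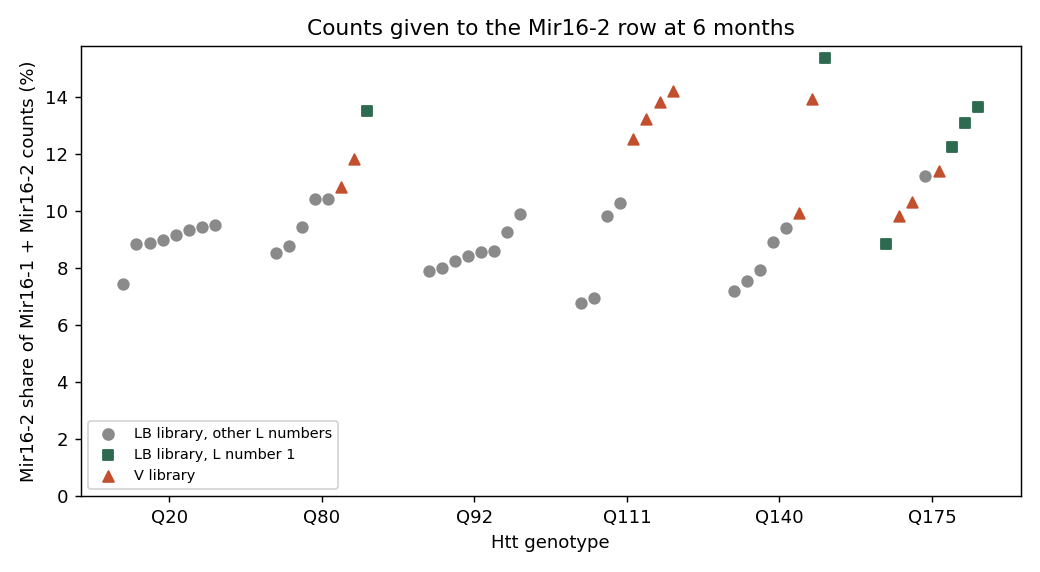
Share of Mir16-1 plus Mir16-2 estimated counts given to the Mir16-2 row (percent, linear axis from 0) in the 48 libraries of 6 months without WT, by genotype, with symbols for library code and L number 1. The Q20 libraries lie between 7.47% and 9.50%, and shares over 12% occur in V libraries and L number 1 libraries of 4 genotypes.

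At 2 months the group was tested in Q175 mice without the values that chose it. By edgeR 0 of 5 members were called, with 0 at an unadjusted p under 0.05, and 0 by DESeq2. Over all 732 rows 0% were called, and 39 had an unadjusted p under 0.05 by edgeR. The log2 fold changes ran from -0.04 to 0.10, with standard errors of 0.05 to 0.12. Mir195a had 382, 417 and 521.99 CPM in Q175 mice against 337, 396 and 503 CPM in controls, a log2 fold change of 0.07 with a 95% interval of -0.06 to 0.20. For Mir497b the interval was -0.09 to 0.14. The ranges of both rows overlapped. Without the male Q20 library of this age that stood apart, the log2 fold changes of Mir195a and Mir497b were 0.09 and 0.03. The single Q175 library with L number 1 had the highest Mir16-2 value (1614 CPM), and the 6 controls of that number averaged 1033 CPM, against 810 CPM for the 6 controls of number 2.

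The lower CAG lengths gave 60 tests, 5 members in 4 genotypes at 3 ages. With library code as a covariate at 6 months and only LB libraries in Q20 mice, some of these tests did not use all mice. The Q80, Q111 and Q140 estimates of that age rest on 6, 4 and 6 LB libraries. For Mir16-2, 6 of 8 Q111 libraries lay above every Q20 library and 2 below. The Q111 log2 fold changes of the 5 members were -0.05 to 0.05. By edgeR's quasi-likelihood test with Benjamini-Hochberg adjustment 0 of the 60 were called, 6 had an unadjusted p under 0.05, and DESeq2 called 1. Over all rows the share called by edgeR was 0.156% in Q80 and 0.159% in Q92 mice at 6 months and 0% in the other 10 comparisons. DESeq2 called 3 rows in Q92 mice at 6 months, where its member call lay. Its highest count in these comparisons was 8, in Q140 mice at 6 months. Rows with an unadjusted p under 0.05 by edgeR ran from 21 of 724 (Q140 at 2 months) to 80 of 721 (Q92 at 2 months). Of the 60 log2 fold changes 37 were positive, and they ran from -0.16 (Mir15a in Q92 mice at 2 months) to 0.31 (Mir16-2 in Q111 mice at 2 months).

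The smallest adjusted p belonged to Mir497b in Q140 mice at 10 months. Its values were 584, 627 and 822 CPM in Q140 mice against 359, 531 and 655 CPM in the controls that the Q175 comparison also used. All 8 Q140 libraries lay above the control median and 2 lay above all controls. The log2 fold change of 0.30 ± 0.08 did not pass the adjustment over 695 rows (edgeR, adjusted p = 0.247). Mir16-1 in the same mice had a log2 fold change of 0.14 ± 0.06 (edgeR, adjusted p = 0.636). The call made by DESeq2 was Mir195a in Q92 mice at 6 months, where edgeR gave 0.14 ± 0.04 (adjusted p = 0.255). There the Q92 libraries had 466 to 529 CPM and the Q20 libraries 427 to 495 CPM, and 0 of the Q92 libraries shared an L number with Q20.

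CAG length as a number was tested at 2 months over all 56 libraries and at 6 and 10 months without the Q175 mice. In these 15 tests 0 members were called by edgeR, 1 had an unadjusted p under 0.05, and DESeq2 called 0. Over all rows 0% were called at 2 months, 0.394% at 6 months and 0.369% at 10 months. An unadjusted p under 0.05 by edgeR was found in 42 of 889, 65 of 762 and 69 of 813 rows at these ages. Mir497b at 10 months had the smallest p, with a log2 change of 0.15 ± 0.05 per 100 CAG repeats (edgeR, adjusted p = 0.335, 48 libraries). The other 4 members at that age had changes between -0.02 and 0.06.

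**Figure D3:**
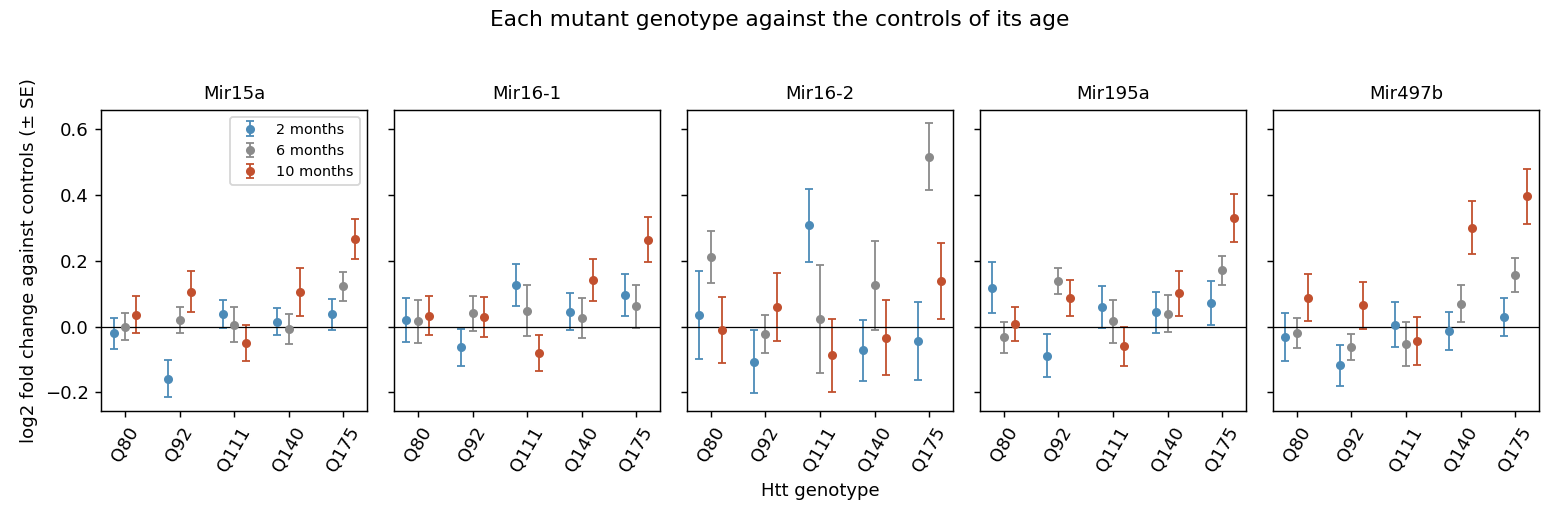
Log2 fold change against controls (points) with standard errors (bars) for 5 rows in 5 mutant genotypes at 3 ages. Values of Q175 mice at 6 and 10 months are a description, since they chose the group. Within the Mir497b row at 10 months, Q140 mice had 0.30 ± 0.08 and Q175 mice 0.40 ± 0.08.

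The control genotypes and the sexes were compared in the same way. Between WT and Q20 mice at 2 and 10 months 0 of 10 member tests were called by edgeR or DESeq2, and 3 had an unadjusted p under 0.05 by edgeR and 2 by DESeq2. The share called over all rows was 0% at both ages. At 2 months the WT minus Q20 difference was -0.17 ± 0.06 for Mir16-1 and -0.22 ± 0.10 for Mir16-2, and at 10 months it was -0.12 ± 0.06 for Mir195a. Males and females differed in 0 of 15 member tests by edgeR or DESeq2, with 0 at an unadjusted p under 0.05 by either tool, and log2 differences ran from -0.07 to 0.13. Over all rows 0.225%, 0.127% and 0.234% were called between the sexes at 2, 6 and 10 months. At these ages 51 of 889, 63 of 790 and 59 of 855 rows had an unadjusted p under 0.05 by edgeR.

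Age gave the largest differences of the group. Between 2 and 10 months, over the libraries of both ages and adjusted for genotype and sex, 3 of 5 members were called by edgeR, all higher at 10 months. The libraries of 10 months include the Q175 mice whose values chose the group. Over all 1029 rows 35.2% were called and 17.7% were called higher, so calls were common in this comparison. Age and sequencing run cannot be told apart. L number 7 was the only one that both ages had, and 4 names of L number and code occurred at both ages, so that a shared number is not a shared run.

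Mir497b had 308, 368 and 478 CPM at 2 months and 359, 559 and 946 CPM at 10 months (lowest, median and highest of 56). At 10 months 53 of 56 libraries lay above every 2-month library. The log2 fold change was 0.66 ± 0.03 (edgeR, adjusted p = 5.2e-36), and the mean was higher at 10 months in 7 of 7 genotypes.
Mir15a had 267, 430 and 507 CPM at 2 months and 378, 574 and 755 CPM at 10 months, with 51 libraries above the highest value of 2 months. Its log2 fold change was 0.46 ± 0.03 (edgeR, adjusted p = 6.0e-31), also in the same direction in 7 genotypes.
Mir195a, with 334, 406 and 522.2 CPM at 2 months and 335, 418 and 673 CPM at 10 months, rose by a log2 fold change of 0.12 ± 0.03 (edgeR, adjusted p = 0.00101), and its mean was higher in 5 of 7 genotypes. The ranges overlapped almost fully, and with library totals alone as the scaling the change was 0.05 and was not called, nor was it called in controls alone, where it was 0.06. The Mir195a mean went from 424 to 531 CPM in Q175 mice, whose 10-month values chose the group. It went from 404 to 411 CPM in controls and was lower at 10 months in Q80 and Q111 mice.
The miR-16 rows did not pass, with 0.07 ± 0.03 for Mir16-1 (edgeR, adjusted p = 0.0537) and -0.06 ± 0.05 for Mir16-2 (edgeR, adjusted p = 0.499).

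Marker sums moved with age as well, the oligodendrocyte median from 3372 to 4509 CPM and the vascular and mural median from 22532 to 18629 CPM. The erythrocyte median went from 3311 to 2487 CPM and the microglia and leukocyte median from 2000 to 2406 CPM. Neuronal markers went from 48830 to 52325 CPM, choroid plexus markers from 3551 to 3195 CPM and Mir122 from 0.98 to 1.35 CPM. Calls within a list could go both ways. By edgeR 2 erythrocyte markers were called higher at 10 months and 1 lower. Choroid plexus markers had 2 and 1 such calls, and neuronal markers 2 and 2. Oligodendrocyte markers had 2 higher and 0 lower, microglia and leukocyte markers 2 and 0, and vascular and mural markers 0 and 2. The part of these markers was not tested.

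Ratios of neighbouring hairpins within a library need no scaling between libraries. They were chosen after the values above had been seen and restate them, so they are given without a test. The log2 ratio of Mir15a to Mir16-1 counts was -4.02 ± 0.15 (SD, n = 56) at 2 months and -3.62 ± 0.11 (SD, n = 56) at 10 months. The difference was 0.39, with 46 of 56 older libraries above all younger ones, and it was positive in 7 of 7 genotypes. For Mir497b to Mir195a the log2 ratio went from -0.13 ± 0.14 to 0.42 ± 0.17, a difference of 0.55, positive in 7 genotypes and with 54 of 56 older libraries above all younger ones. The Mir15b to Mir16-2 ratio differed by -0.11, and 0 of the older libraries lay above all younger ones.

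The 6-month libraries did not lie between the other ages. Their Mir497b to Mir195a log2 ratio was -0.92 ± 0.13 (SD, n = 48 without WT) and their Mir15a to Mir16-1 ratio -4.36 ± 0.11, below both 2 and 10 months. Mir497b had 214, 247 and 292 CPM in these libraries, under the lowest value of either other age, while Mir16-1 had 7406, 8447 and 10317 CPM. The order of ages was therefore 6, 2 and 10 months for both ratios. How many of all rows lay apart at 6 months in this way was not counted. Some marker sums in controls did so too. The vascular and mural sum was 36511 to 43247 CPM at 6 months, against at most 26213 CPM at 2 and 23345 CPM at 10 months. The microglia and leukocyte sum was 949 to 1058 CPM, against at least 1589 and 1685 CPM. The sums of the other marker lists overlapped those of another age. All 11 V libraries were of this age and several of its L numbers occur at no other age, and the part of either in the ratios was not tested.

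**Figure D4:**
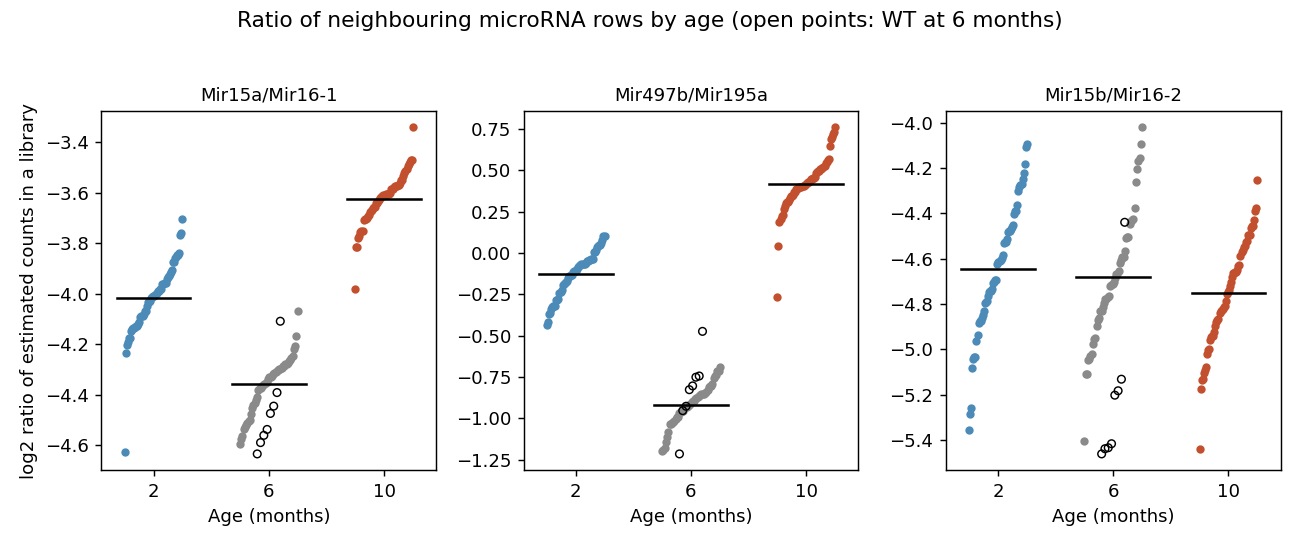
Log2 ratio of estimated counts of neighbouring rows in each library by age, with lines at the mean of filled points and open points for WT at 6 months. Mir497b/Mir195a averages -0.13 at 2, -0.92 at 6 and 0.42 at 10 months, and Mir15b/Mir16-2 differs little between ages.

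Within an age and after subtracting genotype means, the members varied together from mouse to mouse at 2 and 10 months. All these correlations are descriptions across libraries that share depth and normalization. At 10 months (n = 56) Pearson's r of log2 CPM was 0.82 for Mir16-1 with Mir497b, 0.72 for Mir15a with Mir16-1 and 0.60 for Mir195a with Mir497b. At 2 months (n = 56) the same pairs had 0.75, 0.49 and 0.60. At 6 months (n = 48) they had 0.14, 0.48 and 0.39, and Mir16-1 with Mir16-2 fell to 0.11 from 0.69 at 2 months and 0.54 at 10 months.

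Over 160 libraries without WT at 6 months, with age means subtracted, the 3 rows most like Mir195a among 301 others with a mean of at least 10 CPM were Mir15a (r = 0.65), Mir497b (0.63) and Mir16-1 (0.61). Mir16-2 stood in place 10 with 0.41. Rows most like Mir16-2 were Mir24-2 (0.55), Mir210 (0.49) and Mir29b-2 (0.48), and the nearest member was Mir16-1 in place 5 (0.46). These libraries include the Q175 mice whose Mir195a values chose the group, so genotype differences enter these correlations. With genotype means subtracted within each age as well, a setting chosen after the values were seen, Mir195a had r = 0.58 with Mir497b, 0.57 with Mir15a and 0.54 with Mir24-2, and Mir16-1 stood in place 5 with 0.52. Without the Q175 libraries (136 left) the nearest rows were Mir15a (0.56), Mir497b (0.51) and Mir16-1 (0.50). The nearest row to Mir16-2 was Mir24-2 in both settings (0.57 and 0.58).

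Of 12 further entries on a list of the wider seed family, 7 had a row. These were Mir15b, Mir322, Mir503, Mir103-1, Mir103-2, Mir107 and Mir1907, and the last never exceeded 2 counts in a library and was not tested. The Mir103-1, Mir103-2 and Mir107 rows also held counts that were not whole in any library, so their division is an estimate. By edgeR 0 of the other 6 were called against controls in any mutant genotype at any age. For Mir15b, the partner of Mir16-2, the Q175 values at 10 months were 31.3, 36.9 and 43.0 CPM against 21.1, 30.0 and 36.4 CPM in controls, a log2 fold change of 0.27 ± 0.08 from the contrast that chose the group. The deposited FPKM of Mir15b imply 98 bases where the annotation gives 64. Between 2 and 10 months 4 of the 6 were called, in a comparison that called 35.2% of all rows. Mir503, which lies beside Mir322 on the X chromosome and had 1 to 30 counts in a library, had a log2 fold change of -0.67 ± 0.10, Mir15b -0.15 ± 0.03 and Mir322 -0.10 ± 0.02, all lower at 10 months, and Mir103-2 had 0.09 ± 0.03.

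The WT libraries of 6 months, which the study's methods do not list and which all had L number 3, differed from the Q20 libraries of that age in opposite directions within the group. Mir16-1 had 7930, 10727 and 12792 CPM and Mir15a 425, 456.4 and 551 CPM in them, with medians above every Q20 library. Mir195a had 277, 376 and 446 CPM and Mir497b 158, 210 and 265 CPM, with medians below every Q20 library. The share of all rows with medians outside the Q20 range was not counted. With these libraries among the controls the 6-month fold change of Mir16-1 in Q175 mice was -0.09 on the log2 scale and 0 members were called by edgeR. Over all rows, CAG length without Q175 at 6 months then called 261 rows, against 3 without these WT libraries. The Q20 libraries had the L numbers 3 and 4. However, 3 WT names of L number and code recur in Q111 libraries of that age, so a shared number 3 need not be a shared run. The part of the run in the WT values was not tested.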

How the data were processed

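The authors clipped the reads (CASAVA 1.8.2 in the submitters' processing notes) and aligned them to mm10 with STAR. Their methods name HTSeq for read counts, but the deposited values are an estimated count per Ensembl transcript that need not be whole, and the tool behind it is not given in the sources used here. The deposited FPKM are per length and library. The FPKM were used for row lengths and levels between members. Estimated counts were rounded to whole numbers. No 2 libraries had identical counts.

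Tests used edgeR 4.0.16 in R 4.3.3 (TMM, robust quasi-likelihood F test, two-sided) over all rows with at least 10 counts in a fit, with Benjamini-Hochberg adjustment and FDR 0.05. Sex of the cage and, at 6 months, library code were covariates. All Q20 libraries of 6 months had code LB, so contrasts of a genotype with them rest on LB libraries. Standard errors came from the coefficient and its F statistic. DESeq2 1.42.0 was an alternative among 16. Ratios used a pseudocount of 0.5. Code was tested on simulated data. The members, family list, markers and rule for similar rows (3 highest correlations with Mir195a and with Mir16-2) were chosen with earlier results of these data known. Named single genes outside these lists were chosen after their values were seen. Replicates are separate mice. Library totals ran from 2041741 to 11646287 counts.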

Additional observations from a re-analysis of the deposited data

Results flagged for a closer look

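In 9 of 105 groups of 8 libraries, 1 library lay apart from the rest by Dixon's test (95% critical value), where chance alone marks about 1 group in 20. Mir15a was low in a female Q92 library at 2 months (267 CPM, others 384 to 430) and in the male Q20 library at 10 months that also stood apart by distance (378 CPM, others 506 to 609), and high in a male WT library at 6 months (551 CPM, others 425 to 479). Mir16-1 was high in a female WT library at 10 months (8677 CPM, others 6552 to 7101). The same male Q175 library at 2 months was high for Mir16-2 (1614 CPM, others 672 to 1057) and Mir195a (521.99 CPM, others 382 to 437), and it was the 1 Q175 library with L number 1 at that age. Mir16-2 was high in the Q80 library of L number 1 at 6 months (1261 CPM, others 875 to 1054). Mir195a was high in a female Q20 library at 10 months (475 CPM, others 401 to 435), 1 of those whose labelled sex differs from the cage, and Mir497b in a male WT library at 2 months (432 CPM, others 325 to 372).

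The WT libraries of 6 months, which enter only an alternative fit, had medians outside the range of the Q20 libraries for 4 members. The share of all rows with such medians was not counted. The medians were 456.4 CPM for Mir15a and 10727 CPM for Mir16-1, above Q20, and 376 CPM for Mir195a and 210 CPM for Mir497b, below Q20.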

How the results depend on the processing

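Of 283 counts of called members under the alternatives, 273 stayed within 1.5 times the reported count. In Q175 mice at 6 months the count of 1 became 2 with DESeq2, with filterByExpr and with only the microRNAs of the study's table, each time by adding Mir195a (0.17, 0.18 and 0.21 on the log2 scale), and 0 with the 6-month WT libraries, with the miR-16 rows added and with the replicate block. In Q175 mice at 10 months it was 1 with Q20 as the only controls, a setting with fewer samples, and 3 with the replicate block, where Mir16-1 (0.28) was not called. In Q92 mice at 6 months it was 1 with DESeq2 and with the study's table. Without Q175 mice, CAG length at 6 months called 2 with the 6-month WT libraries, Mir195a (0.19) and Mir15a, whose change reversed to -0.10. The other reversals among printed values were Mir497b (-0.0283, Q20 only) and Mir16-2 (0.105, L number as a covariate) in Q175 mice at 2 months, Mir16-1 in Q175 mice at 6 months (-0.0909, with 6-month WT) and Mir16-2 at 6 months against Q80 on L number 1 (-0.0799), and Mir195a between 2 and 10 months among libraries of L number 7 (-0.0865, 4 and 25 libraries of unequal genotypes and, by repeated library names, not 1 run), the last 2 chosen after seeing the data. The age difference of the Mir15b to Mir16-2 ratio was -0.15 in controls alone. The cause of these changes was not tested. Of 1343 member values in refitted alternatives 77 changed sign, 0 of them called in the reported fit, and the largest of those was 0.0943 in size there.

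The replicate block used the sex and replicate number of the titles. Of 8 same-numbered pairs of Q175 and Q20 libraries 7 at 2 months and 2 at 6 months correlated over 0.1, and 1 of 7 at 10 months, and 3, 0 and 0 libraries correlated best with their own number, so the numbers were not taken to pair the samples. At 2 months the number partly followed the L number, with male replicate 1 on number 1 in 6 of 7 genotypes. The block left 3 members called between 2 and 10 months. Over all rows, calls ranged from 0 (replicate block) to 19 (no library code) for Q175 mice at 6 months, from 23 (Q20 only) to 49 (filterByExpr) at 10 months, from 218 (study's table) to 380 (library total) for age, and from 0 to 261 (6-month WT) for CAG length without Q175 at 6 months. Library totals as the only scaling shifted the median age difference of all rows by -0.06. Mir16-1 passed between 2 and 10 months with the study's table (0.06) and with the labelled sex (0.07). The estimated division of miR-16 reads and the open identity of the Mir497b row limit what these values mean.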
